A study of Mus musculus with 7 samples.

Results

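The trefoil factors are 3 mouse genes, Tff1, Tff2 and Tff3, taken by name through the accession of each array probe. All 3 were measured, each by 1 probe with 1 spot per array, among 17043 named genes. Total RNA of 7 mouse samples was read on 7 one-colour Agilent arrays, 1 array per group, so there is no replicate, no test and no p-value, and the number of arrays limits every value. The first culture was stomach-type tissue grown from mouse embryonic stem (ES) cells to day 42 in DMEM/F12 with N2/B27, EGF at 50 ng/mL, FGF10 at 100 ng/mL, Wnt3a, Noggin (which blocks BMP signalling) and R-spondin1 (which raises Wnt signalling) at 250 ng/mL. The second was labelled as grown from day 42 to day 46, or 4 days, in Shh medium, with the signalling proteins Shh at 100 ng/mL and Bmp4 at 10 ng/mL. FGF10 at 100 ng/mL and R-spondin1 at 250 ng/mL are listed for this second sample too. The labels spell out neither its medium before day 42 nor whether FGF10, Wnt3a, Noggin and R-spondin1 were then withdrawn. Both ES-derived groups share the EGF-based medium and ES cells kept with serum and LIF, and the labels name neither the ES line nor the number of cultures. The tissues were stomach primordium of embryonic day 9.5 (E9.5, strain ICR) and freshly isolated stomach, intestine, lung and esophagus of adult ICR mice, with no number of animals, sex, age in weeks or gut segment given.

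Trefoil factors are small secreted peptides built around the trefoil domain, a cysteine-bonded fold that resists proteases. They are released together with mucins and take part in mucus assembly and in the repair of damaged epithelium. In the mouse gut, Tff1 is known from the surface mucous cells of the stomach, beside the mucin Muc5ac. Tff2, first called spasmolytic polypeptide, is known from mucous neck cells and deep gland cells, beside the mucin Muc6, and Tff3 from intestinal goblet cells, beside the mucin Muc2.

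A level below is the log2 processed signal minus the array's 75th percentile, and a difference of 1 is 2-fold. The scanner software's own error lay between 0.14 and 0.31 (log2) for trefoil spots well above background and between 0.39 and 1.44 for those that were not. As a yardstick for a difference, the standard deviation between different probes of the same gene was 0.51 for day 46 against day 42, between 0.48 and 0.60 within the adult organs, between 0.63 and 0.69 for E9.5 stomach against them, and between 0.85 and 0.93 for an ES-derived array against a tissue array. It covers the spread between probes on the same pair of arrays. A shift common to a whole array cancels in it, and the spread between cultures or animals is not covered. The 4 adult organs shared a slide and the other 3 samples had a slide each, so for those 3 samples slide and group cannot be told apart. Each organ's defining markers were present: the stomach list (Atp4b, Atp4a, Pgc, Gkn1, Muc5ac) was above background in 5 of 5 in adult stomach, the intestine list in 5 of 5, the lung list in 4 of 4, and the esophagus list in 4 of 5, where Ivl was not. In the primordium 4 of 4 measured markers (Barx1, Sox2, Shh, Gata4) were above background. The adult esophagus array also held lung genes, with Sftpc at 5.12 and Scgb1a1 at 5.44 against 9.71 and 9.57 in lung. On the adult stomach array 5 of 5 esophagus genes were above background, with a summed level of 7.15 against 8.85 in esophagus. Counts above background alone thus do not tell these organs apart. Of 5 pancreatic acinar genes, all above background in adult stomach, Clps (10.13) and Prss2 (1.24) stood above their intestine levels (3.13 and -2.78), while Cpa1 (-5.56), Pnlip (-5.02) and Cela2a (-3.76) stood below theirs (-1.50, -2.85 and -3.32). Of 6 markers listed for ES-derived stomach tissue, 4 were above background at day 42, where Barx1 and Gkn1 were not. At day 46 all 6 were. Barx1 itself was no higher at day 46 (-5.78) than at day 42 (-5.60). The lowest detected signal was lower at day 46 (-7.13 against -5.57). On both ES-derived arrays 4 of 4 hepatocyte genes and 3 of 3 cardiac genes were above background. At day 42 and day 46 Alb (5.67 and 6.08) and Fgb (5.71 and 5.00) stood above their adult stomach levels (-2.37 and -4.65), while Apoa1 (2.56 and 1.38) and Ttr (-2.48 and -3.91) stood below theirs (5.37 and -0.59). The summed cardiac level was 6.63 and 5.83, against -1.32 in adult stomach.

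Tff1 was at 4.36 in day 42 tissue, 6.19 in day 46 tissue, -4.26 in E9.5 stomach, 10.44 in adult stomach, -2.62 in intestine, -4.71 in lung and -3.24 in esophagus. It was well above background on all 7 arrays, although on 4 of them it sat low, with processed intensities of 61.6 in E9.5 stomach, 62.0 in intestine, 78.9 in esophagus and 30.2 in lung against 671324 in adult stomach. Adult stomach led, both ES-derived tissues followed, and the other 4 samples lay far below. In the order of levels every neighbouring pair differed by more than the standard deviation between probes except E9.5 stomach and lung (0.46 apart).

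Tff2 was at 3.12 in day 42 tissue, -4.42 in day 46 tissue, 8.31 in adult stomach, 0.99 in lung and -5.10 in esophagus. In E9.5 stomach (-6.66) and intestine (-5.63) the probe was not well above background. Adult stomach was highest, with day 42 tissue and lung next, 2.13 apart, while day 46 tissue and esophagus lay close together at the low end (0.69 apart, within the probe spread of 0.89). The lung signal was an intensity of 1578. Of the 5 stomach markers 2 were above background in lung, where Atp4a had no value. Their summed level was -1.87 in lung against 11.28 in adult stomach, and the source of the lung Tff2 signal was not tested. In esophagus the lung markers had a summed level of 6.30 against 10.69 in lung, and their part in its Tff2 signal was not tested.

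Tff3 was at 1.66 in day 42 tissue, 4.04 in day 46 tissue, -4.19 in E9.5 stomach, -0.84 in adult stomach and 8.89 in intestine. In lung (-6.99) and esophagus (-7.94) the probe was not well above background. Intestine led, and both ES-derived tissues stood above adult stomach, which stood above E9.5 stomach. Every measured neighbour in this order differed by more than the probe spread.

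**Figure D1:**
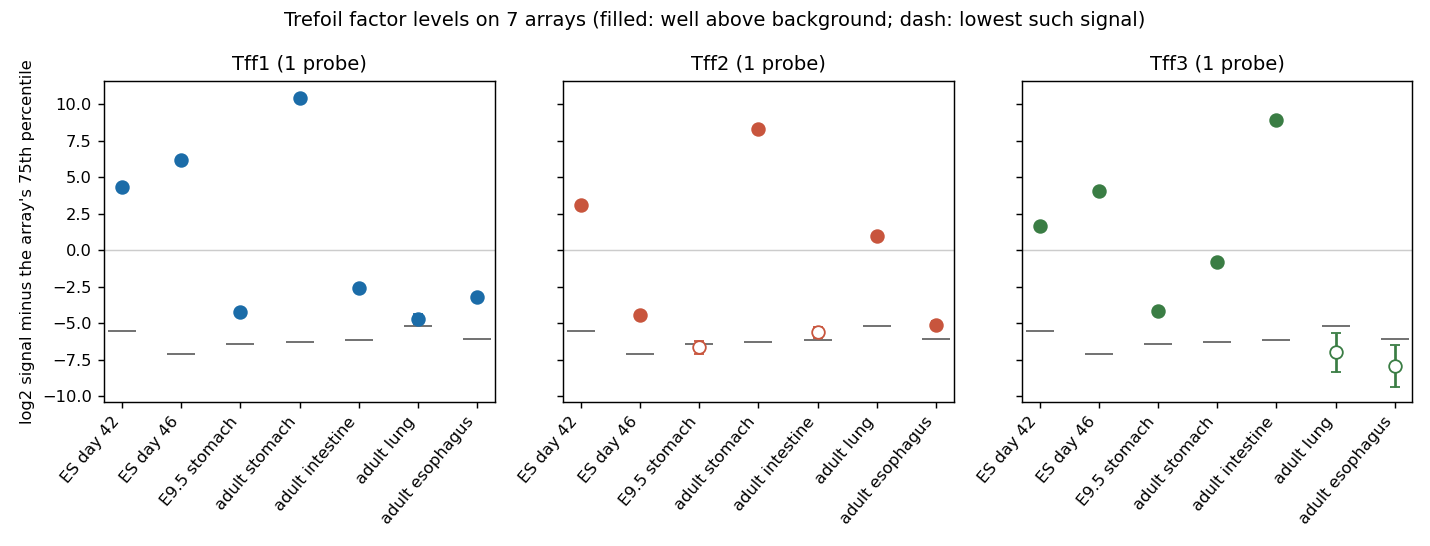
Levels of Tff1, Tff2 and Tff3 (vertical axis, log2 signal minus the array's 75th percentile) on the 7 arrays (horizontal axis), 1 point per array with the scanner software's error as bars, open where the spot was not well above background and a dash at the lowest signal that was. Tff1 and Tff2 peak in adult stomach at 10.44 and 8.31, and Tff3 in adult intestine at 8.89.

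The comparisons among adult organs show where each transcript was high in this series. Tff1 was 8566-fold higher in stomach than in intestine, 36579-fold higher than in lung and 13194-fold higher than in esophagus. The lung difference of 15.16 was the largest of 14700 genes tested, and it ranked first or next to first under the 6 processing alternatives. Tff2 was at least 15677-fold higher in stomach than in intestine, 10898-fold higher than in esophagus and 159-fold higher than in lung. Tff3 ran the other way against intestine, where it was 850-fold higher than in stomach, and it was at least 20.2-fold higher in stomach than in lung and at least 38.7-fold higher than in esophagus. With another background correction (normexp) these bounds were 2.69 and 2.71 on the log2 scale in place of 4.34 and 5.27, and that of Tff2 against intestine was 10.36 in place of 13.94. The same correction gave Tff1 12.07 against intestine, 13.21 against lung and 12.67 against esophagus, and Tff2 10.88 against esophagus. All 3 trefoil factors passed 4-fold in each of these comparisons. Of all genes tested, 15% passed it between stomach and intestine (7.02% higher and 7.96% lower in stomach), 17.8% between stomach and lung (8.97% and 8.84%) and 11.6% between stomach and esophagus (6.31% and 5.31%). The summed level of 5 pan-epithelial genes (Epcam, Cdh1, Krt8, Krt18, Krt19) was 9.38 in stomach, 9.44 in intestine, 6.22 in lung and 2.89 in esophagus, with 5 of 5 above background in each organ. Set relative to the mean of these genes, an alternative added after seeing the data, the stomach to lung difference was 4.57 for Tff2 and at least 1.59 for Tff3. That of Tff3 to esophagus was at least -0.16, which leaves its sign unsettled. On this scale Tff1 and Tff2 stayed higher in stomach than in esophagus, but by far less than the folds above. The mean of these genes was 5.75 in stomach and 0.31 in esophagus.

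Day 46 was set against day 42 to see which genes differ after Shh and Bmp4, and the 4 further days in culture and the medium cannot be told apart. The trefoil factors parted: Tff1 and Tff3 were higher at day 46 and Tff2 was far lower. The processed intensity of Tff1 was 22957 at day 42 and 125791 at day 46, and after scaling it was higher by 1.83, or 3.57-fold. Tff3 went from an intensity of 3544 to 28322 and was higher by 2.38, past 4-fold. Tff2 went from 9744 to 80.8 and was lower by 7.53, or 185-fold (a difference of -7.53), which left it 2.71 above the lowest detected signal of the day 46 array. Each difference exceeded the standard deviation between probes, Tff1 by 3.57 times, Tff3 by 4.63 times and Tff2 by 14.7 times.

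Of 15449 genes tested, 1.8% passed 4-fold, 1.04% with the higher level at day 46 and 0.764% with the lower. Tff2 had the lowest difference of all of them, and it stayed lowest under 5 of the 6 processing alternatives and was the second lowest, at -6.72, under the other, another background correction. Tff3 ranked 87 and Tff1 223 from the top. Under median centring, which shifted the median of all genes to -0.39, Tff3 was higher by 1.98, just under 4-fold, and Tff1 by 1.43. With quantile normalization Tff1 ranked 61 from the top, where 94 genes were at least 4-fold higher, and so passed 4-fold. Over the 6 alternatives Tff1 reached at most 2.32 and Tff3 at most 2.67. Whether either passed 4-fold thus depended on the processing. The higher genes made up 57.6% of all 4-fold differences here, 25.6% under median centring and 33.3% under quantile normalization. The pan-epithelial genes were at a mean of 5.74 at day 42 and 5.85 at day 46. The spike-in control RNA of the day 46 array was dimmer, with a median unscaled log2 signal of 7.85 against 12.04 at day 42 and between 10.48 and 11.21 on the other 5 arrays, and its part in the differences was not tested. In bulk RNA, fewer cells of a type and less RNA per cell cannot be told apart.

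Genes listed for the same cells as each trefoil factor were read beside it, from lists drawn up with earlier results of these data known. Of 12 surface mucous genes, the company of Tff1, 11 could be compared: 6 were at least 4-fold higher at day 46, 1 was lower and 4 lay between. The higher ones were Gkn2 (6.39), a gastrokine known to pair with Tff1, the gel-forming mucin Muc5ac (3.61), Anxa10 (3.06), the aspartic protease Ctse (2.45), Psca (2.03) and Gkn1, at least 14.1-fold higher. The lower one was Gkn3 (-4.69), a gastrokine that in mouse is known from mucous neck cells. The median of the 9 detected on both arrays was 2.03, against -0.11 over all genes detected on both.

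The neck mucous list, the company of Tff2, held 3 measured genes, and Muc6 had no named probe. The water channel Aqp5 was lower by 4.90 (-4.90), A4gnt, which caps gastric gland mucins with a terminal sugar, was at least 4.63-fold lower, and Glipr1 differed by -0.14. Over all genes tested, 0.764% were at least 4-fold lower. A4gnt had been close to the lowest detected signal at day 42 already, at -4.92, and with another background correction 1 of the 3 was 4-fold lower. Like Tff2, A4gnt was highest in adult stomach (-0.96). Aqp5 was at -1.15 there, against 6.55 at day 42 and 5.59 in lung, and Glipr1 at -0.20 against 1.35 at day 42.

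The goblet list, the company of Tff3, was split, and Muc2 and Fcgbp had no named probe. Of 7 goblet genes compared, 2 passed 4-fold upwards, 2 passed it downwards and 3 lay between. Over all genes tested, 1.04% passed it upwards and 0.764% downwards. The secreted protein Clca1 (8.76) and the lectin Zg16 (6.85) were higher, as Tff3 was. The mucin-folding enzyme Agr2 (-7.31) and the secretory cell transcription factor Spdef (-4.11) were lower, as Tff2 was. Rep15 stood at 0.45 and Ang4 at 0.28, and the median of the 6 detected on both arrays was 0.37. The list was not uniform between the adult organs either. In stomach and intestine Clca1 was at 0.94 and 7.59, Zg16 at -4.05 and 9.74, and Ang4 at -0.55 and 3.09. Agr2 (6.66 and 4.87), Spdef (1.78 and -0.13) and Rep15 (6.11 and 2.48) were higher in stomach.

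Transcription factors known from foregut and gut epithelium, several of which act on trefoil promoters, were also listed. None of 15 was 4-fold higher or lower at day 46, where 1.8% of all genes were, so the count does not set the list apart. Their differences had a range from -1.25 for Gata5 to 1.59 for the estrogen receptor Esr1, which induces TFF1 in human breast cells. Esr1 was low on both arrays, at -4.93 at day 42, close to the lowest detected signal there, and -3.34 at day 46. Foxa1 was higher by 1.56, Klf4 by 1.56 and Sox2 by 1.39, while Sox9 differed by -0.93 and Foxa3 by -0.71. The median of 0.39 compares with -0.11 over all genes detected on both arrays. Candidate trefoil receptors and a chemokine that shares some of them were read too. The chemokine receptors Cxcr4 (-0.42) and Ackr3 (0.10) and Lingo3 (-0.47) were within 2-fold. Lingo2 was detected at day 46 (-6.16) and not at day 42. The lowest detected signal at day 42 was -5.57, so no difference in Lingo2 can be read. Cxcl12, the chemokine that binds Cxcr4 and Ackr3, was at -2.08, and it missed 4-fold with quantile normalization and with the mean over its probes.

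**Figure D2:**
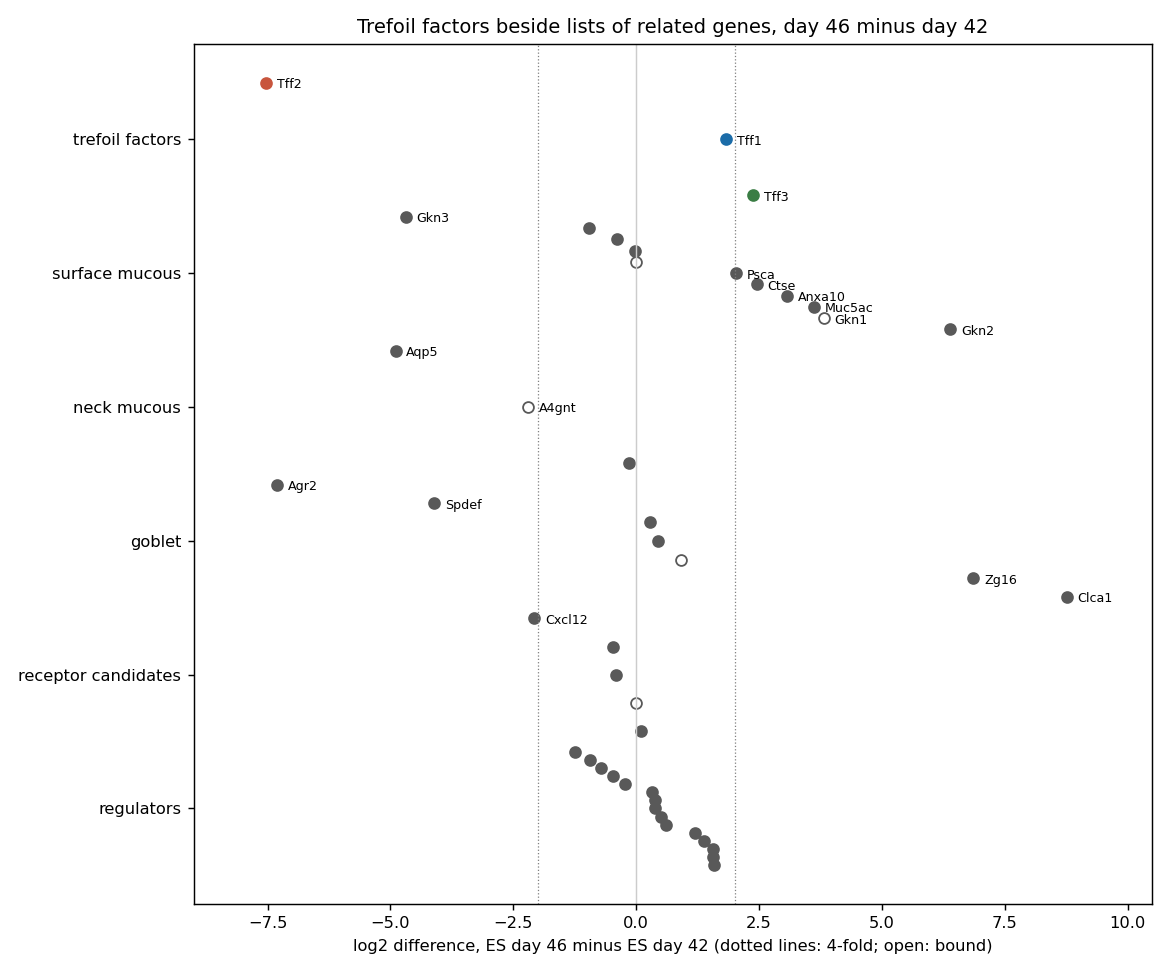
Log2 difference of day 46 minus day 42 tissue (horizontal axis) for the trefoil factors and the measured genes of 5 related lists (vertical axis), 1 point per gene, open where a gene was detected on 1 array and the value is a bound; points are spread vertically within a list for legibility. Tff2 lies at -7.53 with Agr2 at -7.31, whereas Tff1 and Tff3 lie at 1.83 and 2.38 with Gkn2 and Clca1 further out at 6.39 and 8.76.

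The comparisons with adult stomach asked how near each culture came to the organ. At day 42, Tff1 was at 1.47% of its adult stomach signal (a difference of -6.09) and Tff2 at 2.74% (-5.19), while Tff3 was 5.66-fold above the organ (2.50). At day 46 Tff1 was at 5.24% (-4.25), Tff2 at 0.0148% (-12.72) and Tff3 29.5-fold above (4.88). Tff1 thus lay nearer to the organ at day 46 than at day 42, Tff2 and Tff3 farther from it. With quantile normalization the Tff1 difference at day 46 was -2.96, and with normexp that of Tff2 was -11.50.

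Against adult stomach, 17.7% of 14815 genes passed 4-fold at day 42 (7.39% higher, 10.3% lower) and 16.8% of 15723 at day 46 (6.86% higher, 9.91% lower). Under median centring the higher genes made up 61.6% of those at day 42, against 41.8% here. Both comparisons share the adult stomach array. Of the 12 surface mucous genes, 10 were below the organ by 4-fold or more at day 42 and 8 at day 46, and Gkn3 was the 1 higher gene at day 42 (2.83). The difference of Muc5ac was -11.27 at day 42 and -7.66 at day 46, and that of Gkn2 was -8.85 and -2.46. Of the 3 neck mucous genes, A4gnt was lower in both (-3.95 at day 42) and Aqp5 higher in both (7.70 and 2.80). Agr2 was level with the organ at day 42 (0.12) and lower by 7.19 (-7.19) at day 46. The mean of the pan-epithelial genes was 5.75 in adult stomach, beside 5.74 and 5.85 in the cultures.

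Against adult intestine, day 46 tissue had 28.8-fold less Tff3 (-4.85) and 449-fold more Tff1 (8.81). Its Tff2 was at least 2.32-fold higher, a bound that shrank to no difference with another background correction. Over 15701 genes, 21.6% passed 4-fold, 9.35% with more signal in the culture and 12.2% with less. Among goblet genes Clca1 reached 7.87 in day 46 tissue and 7.59 in intestine, Zg16 3.40 and 9.74, and Agr2 -0.54 and 4.87.

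The E9.5 primordium stands for the stomach before its glands form. Relative to adult stomach, Tff1 was lower by 14.70 (-14.70), Tff2 at least 27398-fold lower and Tff3 lower by 3.35 (-3.35), in a comparison where 29.7% of 15086 genes passed 4-fold (11.5% higher, 18.1% lower). Under median centring the higher genes made up 57.4% of those, against 38.8% here. Tff1 and Tff2 ranked 6 and 5 from the lowest. With normexp the differences were -13.20 for Tff1, -11.23 or lower for Tff2 and -2.21 for Tff3, and with quantile normalization -13.28 for Tff1 and -13.87 or lower for Tff2. The 12 surface mucous genes and the 3 measured neck mucous genes all lay below adult stomach by 4-fold or more. The mean of the pan-epithelial genes was 1.17 in the primordium and 5.75 in adult stomach. Set relative to these genes, Tff1 was at -10.12 and Tff2 at -10.16 or below, and Tff3 turned to 1.23. The counts of mucous genes were not rescaled in this way. Before any such rescaling A4gnt was at -5.23 or below, Aqp5 at -5.02 or below and Glipr1 at -5.78.

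Day 42 tissue exceeded the primordium in all 3. Tff1 was 391-fold higher (8.61), Tff2 at least 751-fold and Tff3 57.8-fold (5.85), where 28.5% of 14691 genes passed 4-fold (17.1% higher, 11.5% lower). With normexp these were 7.35 for Tff1, at least 6.45 for Tff2 and 4.63 for Tff3. Set relative to the pan-epithelial genes they became 4.03 for Tff1, at least 4.98 for Tff2 and 1.27 for Tff3. Of 9 surface mucous genes compared, 8 were at least 4-fold higher, among them Anxa10 (8.72) and Ctse (6.93), and Muc5ac was not (0.58). This count was not set relative to the pan-epithelial genes. The embryonic stomach array carried the embryonic globins Hbb-y at 6.43 and Hbb-bh1 at 6.85, and their part in the result was not tested.

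**Figure D3:**
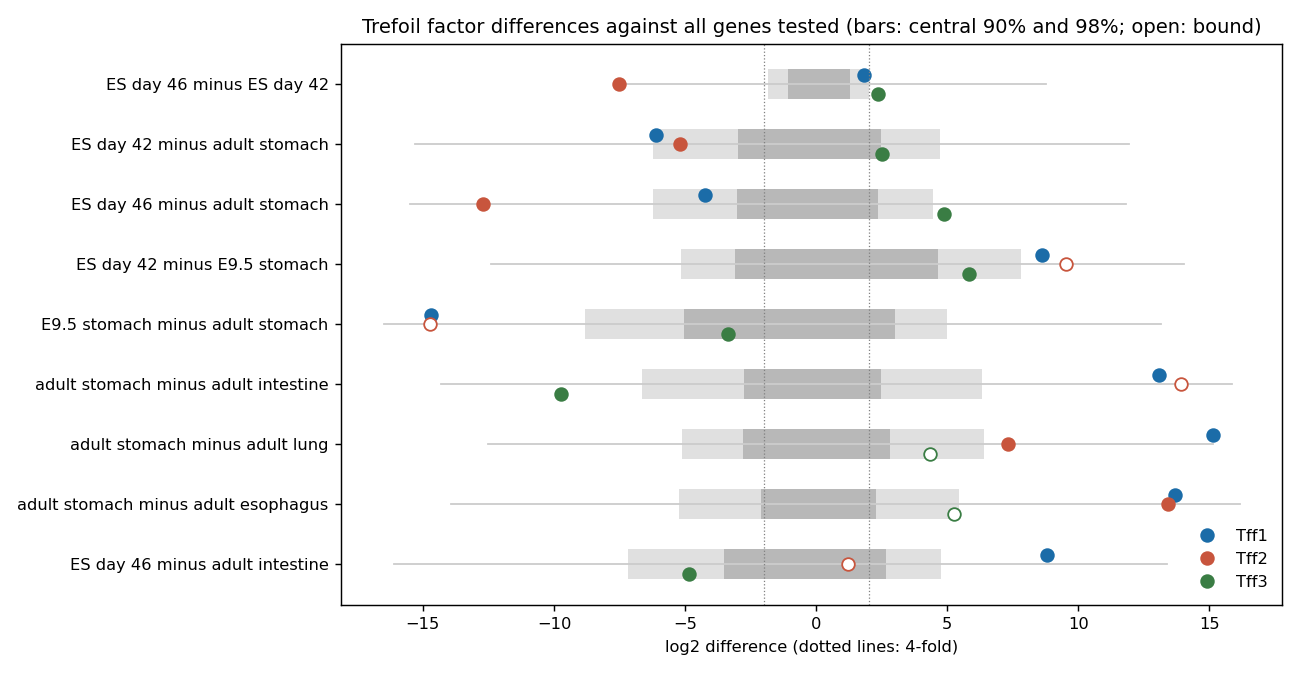
Log2 differences of the 3 trefoil factors (coloured points, open where the value is a bound) in 9 comparisons (vertical axis), drawn over all genes tested, with bars for the central 90% and 98% of genes, a line for the full range and dotted lines at 4-fold. In the day 46 minus day 42 comparison Tff2 lies at the lower end of the range at -7.53, and Tff1 and Tff3 lie at 1.83 and 2.38.

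Genes whose profile over the 7 arrays lay nearest to each trefoil factor were ranked by the root mean square difference of profiles centred on their own mean, with undetected signals raised to the lowest detected one. The ranking covered 15582 genes and describes these arrays alone, since all genes share the same 7 arrays and their scaling. For Tff1 the nearest 5 were Anxa10 (1.14), Psca (1.25), the sulfotransferase Sult1c2 (1.47), Gkn2 (1.61) and Vsig1 (1.73), with Pearson's r between 0.966 and 0.991. All 5 belong to the surface mucous list, which was drawn up with earlier results of these data known. Muc5ac ranked 16 and Gkn1 12. Sult1c2 and Vsig1 did not share the step of Tff1 from day 42 to day 46, at -0.02 and -0.38.

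The nearest to Tff2 was Bpifb1 (1.23, r = 0.977), a secreted protein of the BPI fold family known from airways. Its level was 0.47 at day 42, -2.87 at day 46, 7.16 in adult stomach, 1.00 in lung and -4.86 in esophagus, and its day 46 minus day 42 difference is smaller in size than that of Tff2. It was chosen for this profile, so the likeness is a description. The pepsinogen Pgc (2.47), the intrinsic factor gene Cblif (2.51), the disulfide isomerase Pdia2 (2.63) and the lipid kinase Pik3c2g (2.77) followed. Pgc went from 2.06 at day 42 to -1.48 at day 46. Tff1 ranked 338 in likeness to Tff2 (r = 0.669).

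For Tff3 the nearest were genes known from intestinal epithelium: the secreted lectin-like Reg1 (r = 0.963), Prap1 (1.54), the Eps8 family gene Eps8l3 (1.68), Anxa13 (1.74) and the peptide hormone gene Leap2 (1.75). Each peaked in intestine, from 5.74 for Anxa13 to 9.34 for Prap1. Prap1 (-0.09 to 1.82) and Anxa13 (0.699 to 1.83) were higher at day 46 than at day 42, as Tff3 was. Reg1 did not share this step and was lower at day 46. Eps8l3 (2.97 to 2.55) and Leap2 (-0.35 to -0.81) were slightly lower. Of the goblet genes Zg16 ranked 15 and Clca1 17, and the transcription factor Hnf4a ranked 18. The list depends on the measure: by Pearson's r none of these 5 stayed among the first 5, against 1 of 5 for Tff2 and 4 of 5 for Tff1.

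**Figure D4:**
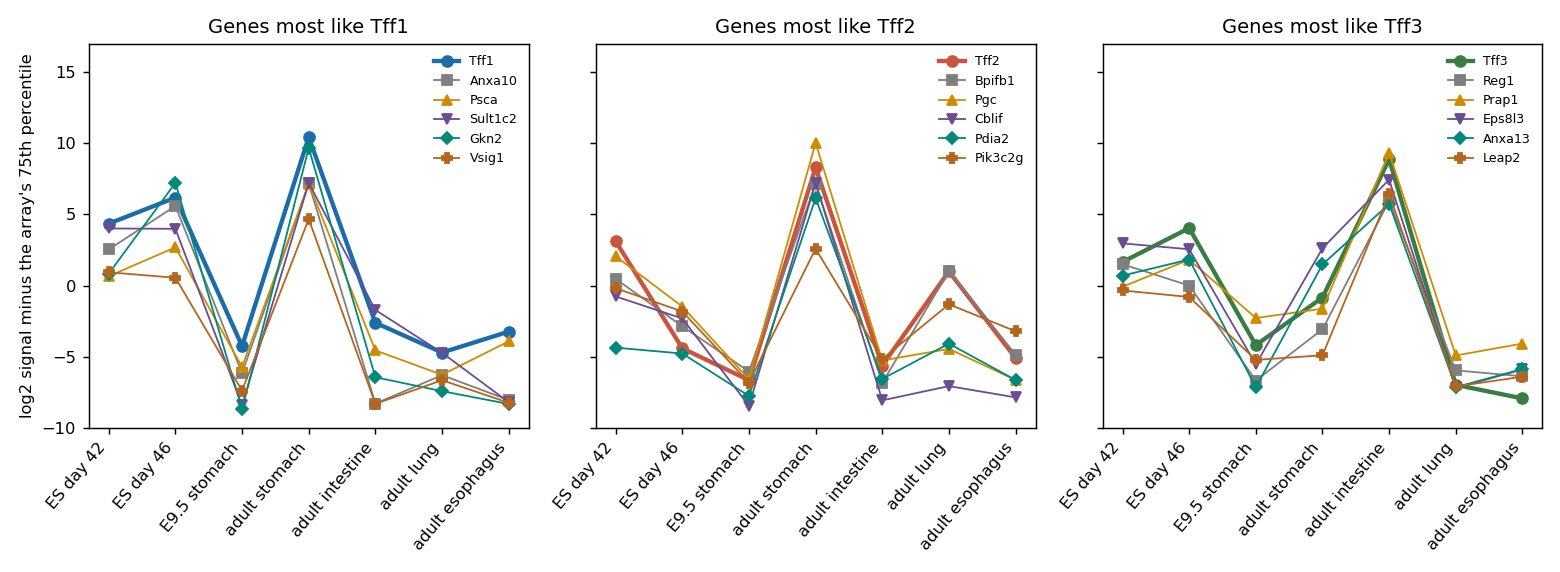
Levels (vertical axis, log2 signal minus the array's 75th percentile) of each trefoil factor (thick line) and the 5 genes nearest to it in profile over the 7 arrays (horizontal axis); lines join arrays of 1 gene and do not mark a time course, and values not well above background are drawn at their own signal. Each of the 5 genes nearest to Tff1 and to Tff2 is highest in adult stomach, and each of those nearest to Tff3 in adult intestine.

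The 3 genes lie next to each other on chromosome 17 in the order Tff3, Tff2, Tff1 in the RefSeq gene table, with no other protein-coding gene between them, and the long noncoding RNA gene Gm15318 overlaps Tff1 and had no named probe. On the Tff3 side the nearest protein-coding genes were Abcg1, Umodl1 and Glp1r, and on the Tff1 side Tmprss3, Ubash3a and Rsph1. Tmprss3, a serine protease gene beside Tff1, kept to a narrow range from -3.99 to -2.74 over the 7 arrays while Tff1 ranged from -4.71 to 10.44. Abcg1, a sterol transporter beside Tff3, peaked in lung at 3.60 and differed by 0.91 between day 46 and day 42. Umodl1 was detected at day 42 (-3.62) and in adult stomach (-5.57), and at day 46 it was below background, a difference of -3.50 or lower. Ubash3a was detected in E9.5 stomach alone (-5.97). Glp1r and Rsph1 were detected at day 46 (-5.43 and -4.86) and not at day 42, differences of at least 0.14 and 0.64. Between day 46 and day 42, then, Tff2 in the middle of the cluster was lower while Tff1 and Tff3 on either side were higher.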

How the data were processed

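The members and gene lists were chosen with earlier results of these data known. Per the file headers, the authors' scanner files hold background-corrected spot intensities with Agilent Feature Extraction, version 10.5.1.1 on the 5 tissue arrays and 10.7.3.1 on the ES-derived pair, whereas the submitters' processing notes name 10.5. The authors also deposited a log2 table scaled to the 75th percentile, whose values correlated with those used here at 0.999 or above. Per the file headers, the other columns used are a 0 or 1 score per spot for detection, saturation and outliers.

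Control spots and outliers (40 to 728 per array) were left out, no spot was saturated, spots of a probe were averaged as log2 intensity, and each array's 75th percentile was taken off. Detection of a probe required that 0.5 or more of its spots be well above background. Accessions in the RefSeq table named 24367 of 41174 probes and its symbols or synonyms another 57; that table has another build than the arrays and gave names and gene order alone. The probe with the highest mean stood for a gene. Where 1 array was below background, its higher value of own signal and lowest detected signal gave a bound, or 0 where that left no difference, and genes below background on both were left out. Differences of 4-fold or more were counted. The rule for genes to name took all trefoil probes, any list member, the 5 nearest profiles and 3 neighbours on each side. The other settings tried were quantile normalization, median centring, the deposited log2 table, normexp (limma 3.58.1, offset 50, median signals), no background filter, the mean over probes, Pearson's r and, chosen after seeing the data, scaling to 5 pan-epithelial genes. Counting and ranking were tested on simulated data. Python 3.11.15 was used. Promoter and protein sequences of the trefoil genes were not used here.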

Additional observations from a re-analysis of the deposited data

How the results depend on the processing

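Of 27 differences, 26 kept their sign under 6 alternatives (all but the pan-epithelial scaling, which was chosen after seeing the data), and a value counted as moved where it shifted by more than the standard deviation between probes. Median centring, the authors' table and the mean over probes moved none of the 27. The exception in sign was Tff2 in day 46 minus intestine. Quantile normalization moved Tff1 in day 46 tissue minus adult stomach to -2.96, in E9.5 minus adult stomach to -13.28, and in adult stomach minus intestine to 12.16 and minus esophagus to 13.03, Tff2 in E9.5 minus adult stomach to -13.87 and Tff3 in stomach minus intestine to -9.13. The normexp correction, whose offset raises dim signals, moved Tff2 to -6.72 in day 46 minus day 42, -11.50 in day 46 minus adult stomach, 6.45 in day 42 minus E9.5, -11.23 in E9.5 minus adult stomach, 0 in day 46 minus intestine, and 10.36 and 10.88 in stomach minus intestine and esophagus. It moved Tff1 to 7.35 in day 42 minus E9.5, -13.20 in E9.5 minus adult stomach, and 12.07, 13.21 and 12.67 in stomach minus intestine, lung and esophagus, and Tff3 to 4.63 in day 42 minus E9.5, -2.21 in E9.5 minus adult stomach, and 2.69 and 2.71 in stomach minus lung and esophagus. With no background filter the last 2 were 6.15 and 7.10. Relative to the pan-epithelial genes, Tff1, Tff2 and Tff3 were at 4.03, 4.98 and 1.27 in day 42 minus E9.5, at -10.12, -10.16 and 1.23 in E9.5 minus adult stomach, at 12.41, 4.57 and 1.59 in stomach minus lung, and at 8.25, 7.97 and -0.16 in stomach minus esophagus. Tff3 thus reversed in E9.5 minus adult stomach, whereas its -0.16 against esophagus is a lower bound that leaves the sign unsettled. Values of Tff2 against E9.5 or intestine and of Tff3 against lung or esophagus are bounds, except with no background filter. The epithelial share of each sample was not tested beyond these 5 genes. Of the counts over lists, 16 moved by more than 1.5 times and 224 did not. The share of higher genes among 4-fold calls in day 46 minus day 42 was 57.6%, with 160 higher and 118 lower, against 25.6% (83 and 241) with median centring, 33.3% (94 and 188) with quantile normalization, 44.3% (54 and 68) with normexp and 75.8% (500 and 160) with no filter. Median centring gave 1716 higher against 1095 in day 42 minus adult stomach and 2880 against 1736 in E9.5 minus adult stomach. With normexp the higher and lower genes were 670 and 1000 against 1095 and 1526 in day 42 minus adult stomach, 578 and 798 against 1052 and 1193 in stomach minus intestine, and 582 and 459 against 938 and 789 in stomach minus esophagus. It also gave 568 higher against 1079 in day 46 minus adult stomach, 766 against 1468 in day 46 minus intestine (31.0% of calls against 43.3%) and 711 lower against 1299 in stomach minus lung. No paired analysis was possible because each group has 1 array. Precision is limited by the number of arrays and, for Tff2 and Tff3 in undetected samples, by signal over background.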
